A study of Drosophila melanogaster with 33 samples.

Results

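The genes described here were followed in fly heads through adult life. They are the alpha-amylase genes Amy-p (FBgn0000079) and Amy-d (FBgn0000078), the amylase-related gene Amyrel (FBgn0020506), and the alkaline phosphatase genes Alp9 (FBgn0035620) and Alp10 (FBgn0035619). They are 5 of the 16240 genes with linear RNA values in the table, and they were picked by name as strong late risers in heads of both sexes, with no numeric threshold, so their age profiles are given here as a description and without a test. The rule did not use the sex difference at each age, which was tested, though on genes picked for their age changes. The data went against the choice for Amyrel, which stayed between 11.0 and 37.5 normalized reads in all 33 libraries. The other 4 genes did have higher values at day 50 than at day 0 in every library of both sexes. Their rise was not late in both sexes, however. By day 10 all male libraries of the amylase copies, and all female libraries of the phosphatases, stood above those of day 0.

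Total RNA, depleted of ribosomal RNA, was sequenced from pooled heads of wild-type Drosophila melanogaster of the CS strain, a standard laboratory stock. Males and females were sampled at day 0 (flies mated for 3 days) and at days 10, 20, 30, 40 and 50, which gave 12 groups of 2 or 3 libraries (15 male and 18 female). The labels name no mutation and no drug in any group. A normalized read here is a gene's read count divided by the size factor of its library, and the 32 libraries whose whole reads could be recovered held 28848182 to 94953552 linear reads each (median 56701537). The titles call the replicates biological without saying that they came from separate cultures, so the p-values measure only the spread between these libraries, which may be technical. Each head library mixes brain, eye, fat body, muscle and other tissue, and in such bulk RNA fewer cells of a type and less RNA per cell cannot be told apart.

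Alpha-amylases cut starch and glycogen into maltose and short sugar chains, which maltases then split into glucose. In flies they are best known as enzymes secreted by the midgut, and their transcripts are known to be lowered by glucose in the food. Alkaline phosphatases are enzymes held at the outer face of the cell membrane that remove phosphate from many substrates, and in flies they are known from the gut, the Malpighian tubules and the brain.

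Amy-p, Amy-d, Alp9 and Alp10 form 2 pairs of neighbours. Alp9 (dm6 3L:5595542-5597422, plus strand, 1 exon) and Alp10 (3L:5592741-5595272, minus strand, 3 exons) stand head to head, share 58.4% of their aligned coding bases, and have no 150-base window in common. The stretch between the starts of Alp10 and Alp9 is printed because these 2 genes had closely similar profiles over the libraries. It spans 269 bases (dm6 3L:5595273-5595541, plus strand, RefSeq release 6 genome), and runs from the first base upstream of Alp10 to the last base upstream of Alp9. Capitals mark the only match to AGATAA on either strand, a short form of the motif named for GATA factors, which reads TTATCT on the strand shown and lies 129 bases from the start of Alp10 and 136 bases from that of Alp9.
Alp10-Alp9: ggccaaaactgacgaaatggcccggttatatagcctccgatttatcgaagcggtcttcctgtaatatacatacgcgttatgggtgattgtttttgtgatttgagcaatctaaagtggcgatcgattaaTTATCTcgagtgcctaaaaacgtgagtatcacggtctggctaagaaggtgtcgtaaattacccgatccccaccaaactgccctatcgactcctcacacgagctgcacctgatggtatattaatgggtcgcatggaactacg
AGATAA was also found once in the 269 bases before the start of each of Amy-p, Amy-d and Amyrel, and it occurs in 18.2% of the 13968 windows of that length before protein-coding genes. TATAAA, 1 form of the TATA box, and CACGTG, an E box, had no exact match on either strand between Alp10 and Alp9, while 45.1% and 3.04% of all windows hold one. Other forms of the TATA box were not searched for, so this does not show that the stretch lacks one. Close head-to-head starts are common in this genome, with 972 neighbouring pairs of coding genes no farther apart than these.

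The amylase copies are neighbours as well. Amy-p (dm6 2R:17118636-17120303, minus strand) and Amy-d (2R:17124764-17126369, plus strand) are the proximal and distal copies of a duplicated gene, point away from each other, and have starts separated by 4460 bases. Both are single-exon genes with coding sequences of 1482 bases that differ at 17 bases (98.9% identity), and 39.3% of the 150-base windows of Amy-p, against 41.0% of those of Amy-d, occur letter for letter in the other copy. A 150-base read from such a window cannot be assigned to 1 copy by itself, though the other read of its pair may place it. The share of ambiguous read pairs was not worked out, so the split of reads between Amy-p and Amy-d is uncertain. How the authors' counting treated such reads is not given in the sources used here. Amyrel (2R:16651095-16652699, minus strand, 2 exons) is a diverged relative with 64.6% identity to either copy, and it overlaps the gene gprs on the opposite strand by 31 bases.

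Amy-p, the proximal amylase copy, was nearly silent at day 0 in both sexes and at day 10 in females. Male libraries held 22.0, 47.6 and 30.7 normalized reads (day 0), 1029 and 1122 (day 10), 2313 and 1786 (day 20), 4513, 4403 and 4158 (day 30), 5501, 5447 and 5121 (day 40), and 9742 and 7959 (day 50). Female libraries held 52.8, 15.4 and 28.7 (day 0), 30.6, 46.3 and 48.4 (day 10), 607, 418 and 451 (day 20), 1429, 1308 and 1221 (day 30), 1170.0, 1777 and 1372 (day 40), and 3067, 1986 and 3672 (day 50). In males no 2 successive ages overlapped, while in females day 10 overlapped day 0 and day 40 overlapped day 30. The day 50 mean was 265-fold the day 0 mean in males and 90.0-fold in females.

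Amy-d, the distal copy, started from a higher level and changed by a smaller factor. In males its libraries held 763, 898 and 867 normalized reads (day 0), 4302 and 5085 (day 10), 10439 and 8627 (day 20), 12682, 12503 and 11902 (day 30), 13713, 12662 and 13404 (day 40), and 17107 and 13561 (day 50). In females they held 854, 774 and 886 (day 0), 872, 898 and 909 (day 10), 2290.3, 2481 and 2445 (day 20), 3559, 3417 and 3169 (day 30), 2511, 3393 and 2849 (day 40), and 6183, 4759 and 6280.5 (day 50). Male values stood apart from day 0 already at day 10, female values first at day 20, and the day 50 mean was 18.2-fold the day 0 mean in males and 6.85-fold in females.

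**Figure D1:**
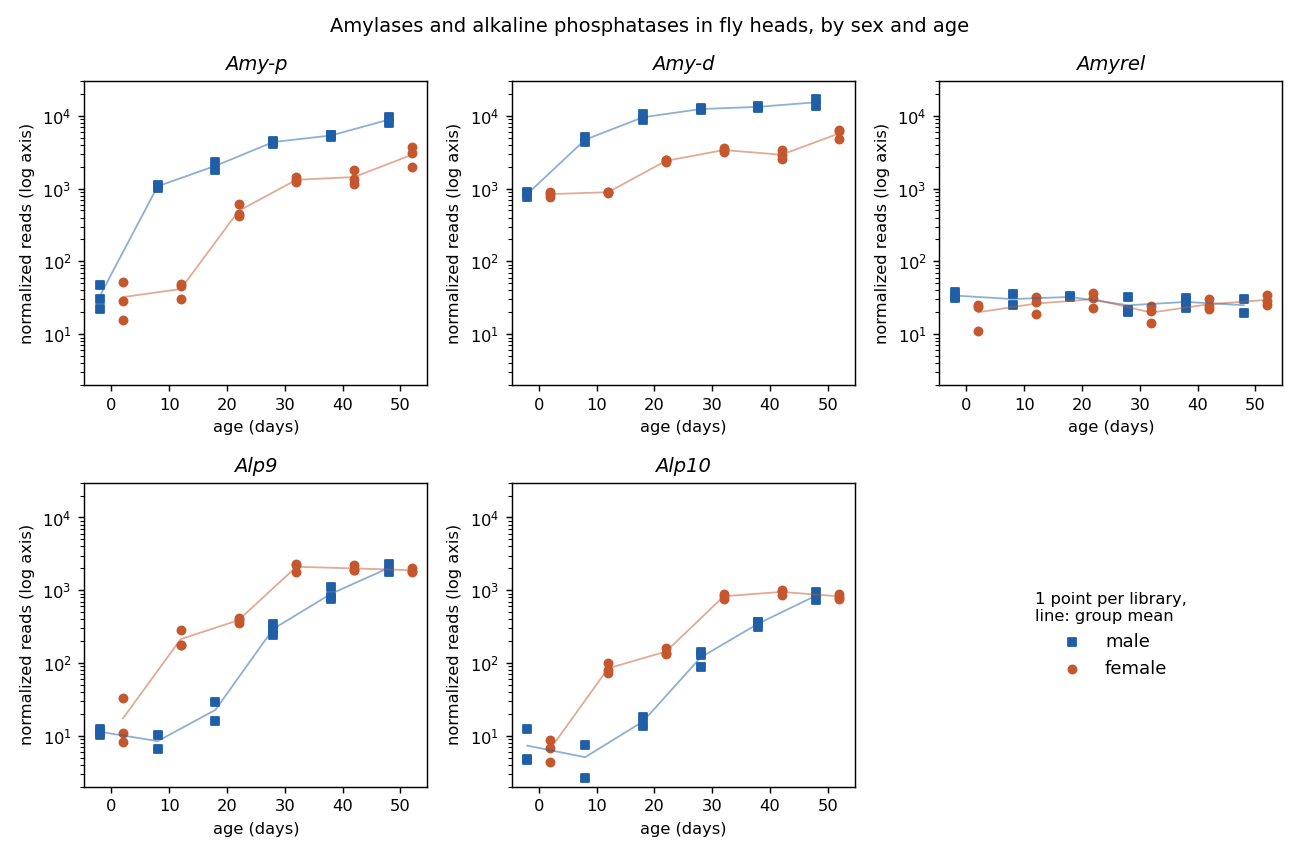
Normalized reads (vertical log axis) of the 5 genes at each age in days (horizontal axis), with 1 point per library, squares for males and circles for females, males drawn just left of the age and females just right, and lines through the group means. The amylase copies were higher in males from day 10 on, the alkaline phosphatases were higher in females from day 10 to day 40 and overlapped at day 50, and Amyrel stayed between 11.0 and 37.5.

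Alp9, the 1-exon phosphatase gene, had its steep part at different ages in the 2 sexes. Male libraries stayed at 11.4, 10.3 and 12.5 normalized reads (day 0), 6.52 and 10.4 (day 10), and 16.0 and 29.5 (day 20), and then held 343, 243 and 297 (day 30), 1118, 763 and 799 (day 40), and 1783 and 2274 (day 50). Female libraries held 32.8, 11.0 and 8.32 (day 0), 286, 179 and 174 (day 10), 354, 419.6 and 393 (day 20), 2316, 2203 and 1785 (day 30), 1871, 1881 and 2243 (day 40), and 1863, 1993 and 1802 (day 50). Female values from day 30 on overlapped from one age to the next, so the plateau of females at day 30 (mean 2102) was met by males only at day 50 (mean 2028). The day 50 mean was 178-fold the day 0 mean in males and 108-fold in females.

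Alp10, its head-to-head neighbour, followed the same course at a lower level. Male libraries held 4.89, 4.67 and 12.5 normalized reads (day 0), 2.61 and 7.58 (day 10), 18.0 and 13.5 (day 20), 143, 88.0 and 128 (day 30), 363, 370.3 and 316 (day 40), and 735 and 961 (day 50). Female libraries held 8.80, 4.41 and 6.81 (day 0), 99.6, 73.9 and 81.0 (day 10), 135, 136 and 160.2 (day 20), 836, 887 and 759.9 (day 30), 965, 864 and 1021 (day 40), and 899, 803 and 771 (day 50). Day 10 males were thus within or below their day 0 range for both phosphatases, while all day 10 females lay above theirs. The day 50 mean of Alp10 was 115-fold the day 0 mean in males and 124-fold in females.

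Amyrel, whose product is known to digest starch, showed no such course. Its mean was 33.9 normalized reads at day 0 and 25.1 at day 50 in males, and 20.0 at day 0 and 29.6 at day 50 in females, Fitted on the log2(normalized reads + 1) scale, the scale of all log2 values here, its day 50 against day 0 difference was -0.46 ± 0.33 (SE) in males and 0.61 ± 0.29 in females. Leaving out 1 library moved it to between -0.78 (without male day 50 replicate 1) and -0.13 (without male day 50 replicate 2) in males, and to between 0.25 (without female day 0 replicate 2) and 0.81 (without female day 0 replicate 3) in females. Its neighbour gprs had a mean of 5948 normalized reads over all libraries, and whether the authors' counting used strand is not given in the sources used here, so reads of the overlapping 31 bases could add to the low Amyrel values.

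With the same model, the day 50 against day 0 difference of Amy-p was 8.07 ± 0.34 in males and 6.57 ± 0.30 in females, and that of Amy-d was 4.18 ± 0.12 in males and 2.77 ± 0.11 in females. For Alp9 it was 7.35 ± 0.34 in males and 6.92 ± 0.30 in females, and for Alp10 6.78 ± 0.31 in males and 6.79 ± 0.28 in females. Among the 12685 genes tested, those averaging 10 or more normalized reads, these values placed Amy-p, Alp9, Alp10 and Amy-d at ranks 4, 10, 15 and 72 from the top in males, and at ranks 12, 4, 7 and 240 in females. A gene counts as called here where the limma adjusted p is under 0.05 and the log2 fold change is beyond 0.5.

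The order of the genes by level, taken per kilobase of exon, changed with age. At day 50 males had means of 9548 normalized reads per kb for Amy-d, 5306 for Amy-p, 1078 for Alp9, 485 for Alp10 and 16.2 for Amyrel, and females had 3575, 1744, 1003, 471 and 19.1 in the same order of genes. No neighbours in that order overlapped over libraries in either sex at day 50. At day 0 Amy-d alone stood clear, at 525 per kb in males and 522 in females, and the other 4 genes had means of at most 21.9 in males and 19.4 in females, with overlaps between Amyrel and Amy-p and between Alp9 and Alp10 in both sexes. In females at day 40 Alp9 (1063 per kb) and Amy-p (863 per kb) also overlapped.

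At day 0 the sexes could not be separated for the amylase copies or the phosphatases. Amy-d averaged 843 ± 71 normalized reads in males and 838 ± 57 in females (SD, n = 3 each), a log2 difference of 0.01 ± 0.11 (SE, limma adjusted p = 0.98), and adjusted p was 0.79 for Amy-p, 0.49 for Alp9 and 0.94 for Alp10. Amyrel was the exception, with 32.6, 31.8 and 37.5 normalized reads in males against 24.0, 11.0 and 25.0 in females (log2 difference 0.81 ± 0.29, limma adjusted p = 0.044). Without female replicate 2, the library at 11.0, the difference was 0.45 (limma adjusted p = 0.32), and without any 1 of the male libraries the limma adjusted p was 0.075 to 0.13. The call was also lost in edgeR (adjusted p = 0.098) and DESeq2 (adjusted p = 0.11) fits of the recovered reads. At this age 5.20% of the 12685 tested genes differed between the sexes.

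By day 10 the amylase copies and the phosphatases differed between the sexes in opposite directions. Amy-p averaged 1076 ± 66 normalized reads in males (n = 2) and 41.8 ± 9.7 in females (n = 3), a 25.8-fold excess in males with a log2 difference of 4.68 ± 0.34 (limma adjusted p = 1.5e-10). Amy-d averaged 4694 ± 554 in males and 893 ± 19 in females, a 5.26-fold excess (2.39 ± 0.12, limma adjusted p = 3.8e-14). Alp9, in contrast, averaged 8.47 ± 2.76 in males and 213 ± 63 in females, 25.2-fold more in females (log2 difference -4.49 ± 0.34, limma adjusted p = 1.5e-10), and Alp10 averaged 5.10 ± 3.52 in males and 84.8 ± 13.3 in females (-3.94 ± 0.31, limma adjusted p = 1.9e-10). Thus 4 of the 5 genes differed between the sexes at day 10, beside 11.6% of all tested genes. No male library overlapped a female one for any of the 4. The genes were picked for their age changes, so the share of all genes is not a like comparison.

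The excess of amylase transcripts in males held through day 50. The log2 difference of Amy-p was 2.06 ± 0.34 on day 20, 1.73 ± 0.30 on day 30, 1.92 ± 0.30 on day 40 and 1.64 ± 0.34 on day 50 (limma adjusted p at most 0.0005), and at day 50 males had 3.04-fold the female mean. For Amy-d the differences were 1.98 ± 0.12, 1.87 ± 0.11, 2.19 ± 0.11 and 1.42 ± 0.12 (limma adjusted p at most 5.8e-10), with a 2.67-fold male excess at day 50. At no age from day 10 on did the lowest male library reach down to the highest female library for either copy.

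The female excess of the phosphatases, in contrast, was smaller at later ages and was not called at day 50. The log2 difference of Alp9 was -4.09 ± 0.34 on day 20, -2.84 ± 0.30 on day 30 and -1.18 ± 0.30 on day 40 (limma adjusted p = 0.0036 at day 40), and that of Alp10 was -3.12 ± 0.31, -2.81 ± 0.28 and -1.44 ± 0.28 at those ages (limma adjusted p = 0.00018 at day 40). At day 50 the groups overlapped, with 2028 ± 347 normalized reads of Alp9 in males and 1886 ± 97 in females (0.10 ± 0.34, limma adjusted p = 0.86) and 848 ± 160 of Alp10 in males and 825 ± 67 in females (0.03 ± 0.31, limma adjusted p = 0.95). With 2 male libraries and these SEs, a p that misses the threshold does not show that the sexes were alike. Genes called between the sexes were 16.6% of those tested on day 20, 12.3% (day 30), 10.2% (day 40) and 11.3% (day 50). Of the 5 genes, 4, 4, 4 and 2 were among them at these ages. These 5 were picked for their age changes, so the shares are not a like comparison.

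**Figure D2:**
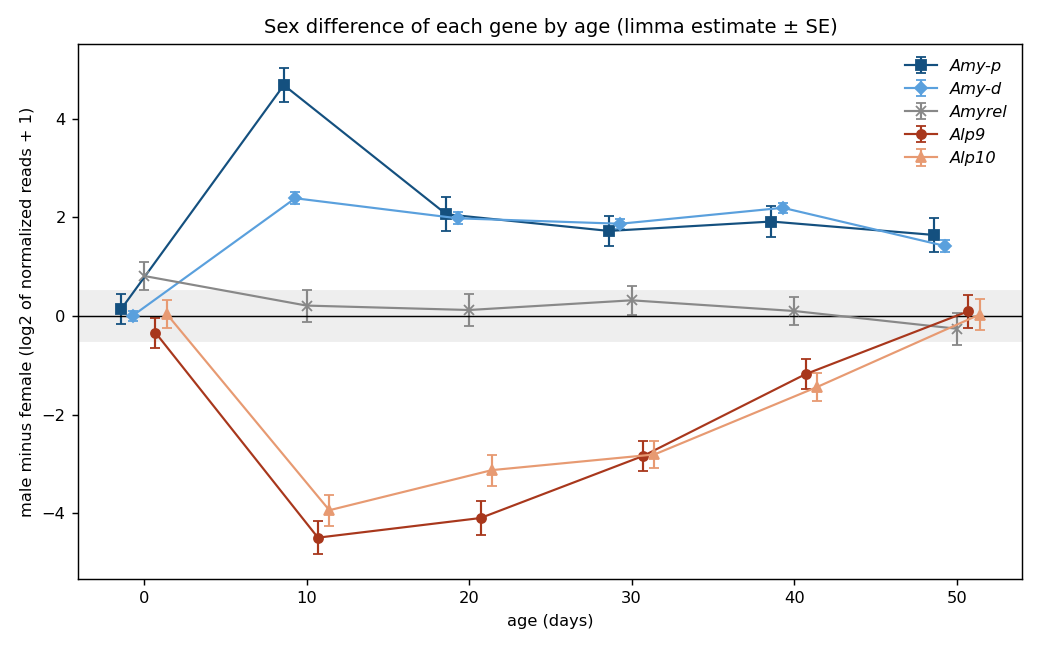
Male minus female difference in log2(normalized reads + 1) with its SE from limma (vertical axis) at each age in days (horizontal axis), 1 line per gene, with points shifted sideways for clarity and the band within 0.5 of 0 in grey. Amy-p and Amy-d lie above the band from day 10 on, Alp9 and Alp10 lie below it from day 10 to day 40 and inside it at day 50, and Amyrel left it only at day 0.

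One library of the day 20 males stands apart, and a day 40 male library does so to a lesser degree. In male replicate 1 at day 20, GC-rich quartile genes were 0.86 (log2) higher relative to GC-poor quartile genes than in day 20 females. The value was -0.04 in male replicate 2. Among the linear genes with a known sequence, Amy-p and Amy-d are at percentiles 99.2 and 99.5 of GC content. Alp9, Alp10 and Amyrel are at percentiles 81.1, 88.8 and 91.0. Without that library the day 20 sex differences were 1.88 for Amy-p, 1.84 for Amy-d, -3.67 for Alp9 and -3.32 for Alp10, with a single male library left, whose spread is assumed to be that of the other groups. In male day 40 replicate 1 the same GC measure was 0.27 against day 40 females, beside -0.085 in replicate 2 and -0.080 in replicate 3. With any 1 day 40 library left out, the sex difference there was 1.78 to 2.08 for Amy-p and 2.09 to 2.31 for Amy-d. For Alp9 it ran from -1.35 to -1.07, and for Alp10 from -1.51 to -1.37. The part of GC content in the other values was not tested.

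The difference of the sexes in the age changes was tested directly. The change by day 10 was larger in males by 4.54 ± 0.46 for Amy-p (limma adjusted p = 1.2e-07) and by 2.38 ± 0.16 for Amy-d (limma adjusted p = 6.8e-11), and differed by -4.16 ± 0.46 for Alp9 (limma adjusted p = 2.9e-07) and by -3.98 ± 0.42 for Alp10 (limma adjusted p = 1e-07), male minus female. The change after day 10, up to day 50, differed the other way, by -3.04 ± 0.48 for Amy-p, -0.97 ± 0.17 for Amy-d, 4.59 ± 0.48 for Alp9 and 3.97 ± 0.44 for Alp10 (limma adjusted p at most 0.00014). Thus 4 of the 5 genes were called in either test, beside 6.36% of all tested genes for the change by day 10 and 7.77% for the change after it. Both of these tests were added after the values had been seen, and all 3 contrasts share libraries, the day 10 and day 0 groups among them. The genes were also picked for their age changes in both sexes, so these p-values and counts are those of selected genes.

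Over the whole span, the change by day 50 was larger in males for Amy-d by 1.41 ± 0.16 (limma adjusted p = 5.3e-07) and for Amy-p by 1.50 ± 0.46 (limma adjusted p = 0.031), while 6.00% of all tested genes were called. The genes were picked for their age changes in both sexes, the changes compared here. These p-values are therefore those of selected genes, and the share of all genes is not a like comparison. The Amy-p call was lost when either of 2 day 0 female libraries, either of 2 day 0 male libraries, 1 day 50 female library or either day 50 male library was left out (limma adjusted p 0.054 to 0.13), with differences of 1.07 to 1.65. For Alp9 the difference was 0.43 ± 0.46 (limma adjusted p = 0.64), for Alp10 -0.01 ± 0.42 (0.99), and for Amyrel -1.07 ± 0.44 (0.12).

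The 2 amylase copies drew closer as both grew more abundant. Amy-d had 27.2-fold the normalized reads of Amy-p at day 0 in males and 32.4-fold in females (means of the libraries' ratios), against 4.36-fold in males and 22.2-fold in females at day 10, but only 1.73-fold in males and 2.04-fold in females at day 50. These ratios carry the uncertainty of the shared windows given above. The ratio of Alp9 to Alp10 moved less, from 1.94 to 3.08 over the 17 libraries of days 30 to 50, around a median of 2.37. Over all 33 libraries, young ones with few reads included, it ranged from 0.89 to 3.73.

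**Figure D3:**
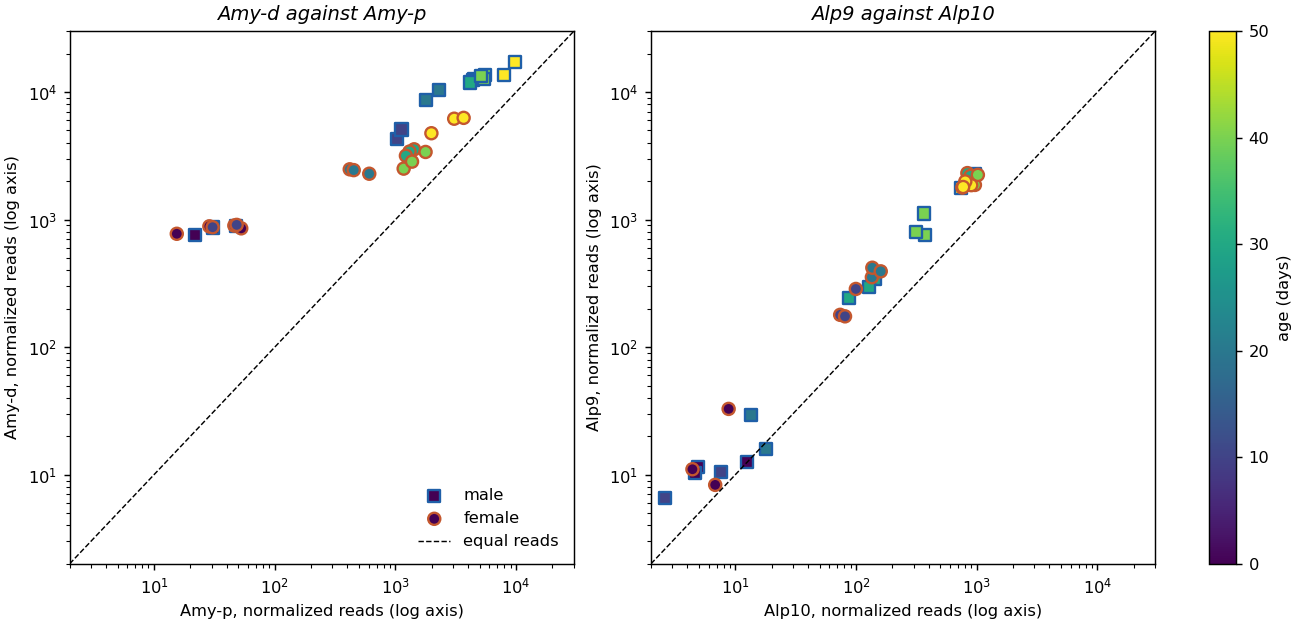
Normalized reads of Amy-d against Amy-p (left) and of Alp9 against Alp10 (right), both axes logarithmic, 1 point per library, squares for males and circles for females, filled by age in days, with the line of equal reads dashed. Amy-d lies far above Amy-p at day 0 and at 1.70- to 2.86-fold its reads at days 30 to 50, whereas Alp9 runs parallel to the line of equal reads.

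Across the 33 libraries, log2 values of Alp9 and Alp10 had a Pearson r of 0.99 (0.47 after the group means were removed), and those of Amy-d and Amy-p an r of 0.96 (0.61 after removal). Alp9 and Amy-p had an r of 0.62, and 0.20 after removal of the group means. These libraries share ages and sexes, so the values describe likeness of profile and no p is given. The genes most like Amy-p were Gnmt (r = 0.98), which encodes glycine N-methyltransferase, Shmt (0.96), which encodes serine hydroxymethyltransferase, and krimp (0.96), and those most like Amy-d were Gnmt (0.96), Shmt (0.95) and CG12698 (0.94). Gnmt had means of 33157 normalized reads in males and 9857 in females at day 50, of 6602 in males and 249 in females at day 10, against 650 in males and 447 in females at day 0. The closest genes to Alp9 were CG11353 (0.96), the tetraspanin gene Tsp42El (0.93) and IM33 (0.92), and to Alp10 CG11353 (0.97), Tsp42El (0.93) and Tsp42Ed (0.93). Amyrel had no close match, with lncRNA:CR44825 (0.62), asRNA:CR31429 (0.59) and lncRNA:CR44470 (0.58) at the top.

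Of the nearest neighbours of the amylase copies, asRNA:CR45272 and CG15605 were too low to be tested, and CG15611 was tested. Between the amylase copies lies asRNA:CR45272, which had 17.3 normalized reads in males and 21.0 in females at day 50, against 1.17 in males and 2.57 in females at day 0, and fell under the level filter. So did CG15605 next to Amy-d, with 5.26 in males and 6.37 in females at day 50, against 0.31 in males and 0.27 in females at day 0. CG15611, beyond Amy-p, had a day 50 against day 0 difference of 0.45 ± 0.05 in males and 0.05 ± 0.05 in females and was not called. Beside Amyrel, gprs was lower at day 50, by 0.82 in males (-0.82 ± 0.04, limma adjusted p = 2.8e-16) and 0.97 in females (-0.97 ± 0.04, limma adjusted p = 4.4e-19), and Nach was not called. Beyond Alp10, spo was not called, and beyond Alp9, CG10591 fell under the filter.

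The other enzymes and regulators around these genes were read from 7 lists of 82 genes, 76 of them in the table and 44 past the level filter. At day 50 against day 0, 12 of the 44 rose and 9 fell in males, and 17 rose and 10 fell in females, beside 19.9% higher and 22.5% lower of all tested genes in males and 21.0% and 24.9% in females. Against day 10, 6 rose and 10 fell in males (9.15% and 10.4% of all genes), and 10 rose and 3 fell in females (12.0% and 11.7%). The lists thus changed in both directions, and what follows gives them by role.

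The other alkaline phosphatase genes did not share the course of Alp9 and Alp10. Of 10 listed, 9 were in the table and 4 passed the filter, and none rose at day 50 against day 0 in either sex, while 1 fell in males and 2 fell in females (list median -0.15 in males and -0.09 in females, beside -0.03 and -0.04 over all genes). Alp4, known from the Malpighian tubules and the brain, fell in males (-0.90 ± 0.09, limma adjusted p = 5.1e-10) and in females (-0.65 ± 0.08, limma adjusted p = 2.4e-08), with means of 2257 normalized reads in males and 2371 in females at day 50, against 4208 in males and 3718 in females at day 0. Alp5 was called in females only (-0.59 ± 0.11, limma adjusted p = 3.5e-05), at -0.27 ± 0.12 in males, and the difference between these changes was not called (limma adjusted p = 0.25). Alp11 and Alp12 were not called in either sex. The 5 others in the table, Alp1, Alp2, Alp7, Alp8 and Alp13, averaged at most 5.93 normalized reads over all libraries.

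Maltases, the next enzymes after amylase, rose or were not called at day 50 against day 0, and moved both ways against day 10. Of 11 listed, 8 passed the filter, and 4 rose in males and 5 in females at day 50 against day 0, with none lower (list median 0.58 in males and 0.70 in females). Against day 10, 1 rose and 2 fell in males, tobi by 2.97 (-2.97 ± 0.33, limma adjusted p = 1e-07) and Mal-A5 by 0.75 (-0.75 ± 0.08, limma adjusted p = 1.7e-08), and 2 rose in females. Mal-B2 had means of 23091 normalized reads in males and 17144 in females at day 50, against 4387 in males and 4275 in females at day 0 (2.40 ± 0.10 in males and 2.00 ± 0.09 in females, limma adjusted p at most 1.5e-17). Mal-A2, a low-level maltase gene, rose by 2.01 ± 0.48 in males and 1.48 ± 0.43 in females (limma adjusted p = 0.00063 in males and 0.0034 in females), and Mal-A6 rose in females (0.79 ± 0.18, limma adjusted p = 0.00027) and stood at 0.45 ± 0.20 in males.

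tobi, an alpha-glucosidase gene known as a target of insulin and adipokinetic hormone in the fat body, differed in sex pattern from the amylase copies. Its means in males were 582, 16091, 51674, 22982, 12300 and 2050.4 normalized reads from day 0 to day 50 in steps of 10 days, and in females 628, 2618, 50632, 48612, 42001 and 36210.0. Like the amylase copies tobi was higher in males at day 10 (2.70 ± 0.30, limma adjusted p = 2.4e-07). Unlike them it was lower in males at day 50 (-4.11 ± 0.30, limma adjusted p = 2.6e-10). Of 8 fat body markers tested, only Lsp2 and to likewise were called higher in males at day 10 and lower at day 50.

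Genes of trehalose and glycogen metabolism moved in both directions, with 1 rising and 3 falling in males and 2 rising and 3 falling in females among 8 tested of 10 listed. Glycogen synthase (GlyS) fell by 2.48 in males (-2.48 ± 0.05, limma adjusted p = 3.8e-24) and 2.33 in females (-2.33 ± 0.05, limma adjusted p = 7.2e-25), glycogen phosphorylase (GlyP) fell by 2.10 in males and 1.74 in females, and the branching enzyme gene AGBE fell by 1.98 in males and 1.83 in females. Most of that fall was complete by day 10, when GlyS already averaged 5891 normalized reads in males and 6111 in females, against 26788 in males and 30456 in females at day 0. The trehalose transporter gene Tret1-1 rose by 0.80 ± 0.07 in males and 1.02 ± 0.07 in females (limma adjusted p at most 2.4e-10).

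Known regulators of the sugar response were mostly not called at day 50 against day 0. Of 10 tested genes 1 rose and 1 fell in males, and 3 rose and 1 fell in females. The GATA factor gene srp rose by 0.72 ± 0.07 in males and 1.18 ± 0.06 in females, cbt, which encodes a sugar-induced repressor, fell (-0.83 ± 0.07 in males and -0.58 ± 0.06 in females), and Mondo, the glucose-sensing transcription factor gene, rose in females (0.87 ± 0.08) and stood at 0.45 ± 0.09 in males (limma adjusted p at most 0.00016 for all of these). Mef2 was not called in either sex. At day 10, sug (-1.49 ± 0.15) and daw (-1.46 ± 0.08) were lower in males than in females. So were bigmax (-0.82 ± 0.08) and cbt (-0.80 ± 0.07), with limma adjusted p at most 2.2e-08 for all of these. The other tested regulators were not called at day 10, when 11.6% of all tested genes were. Between the sexes, sug was called lower in males at every age. The part of these regulators in the amylase values was not tested.

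**Figure D4:**
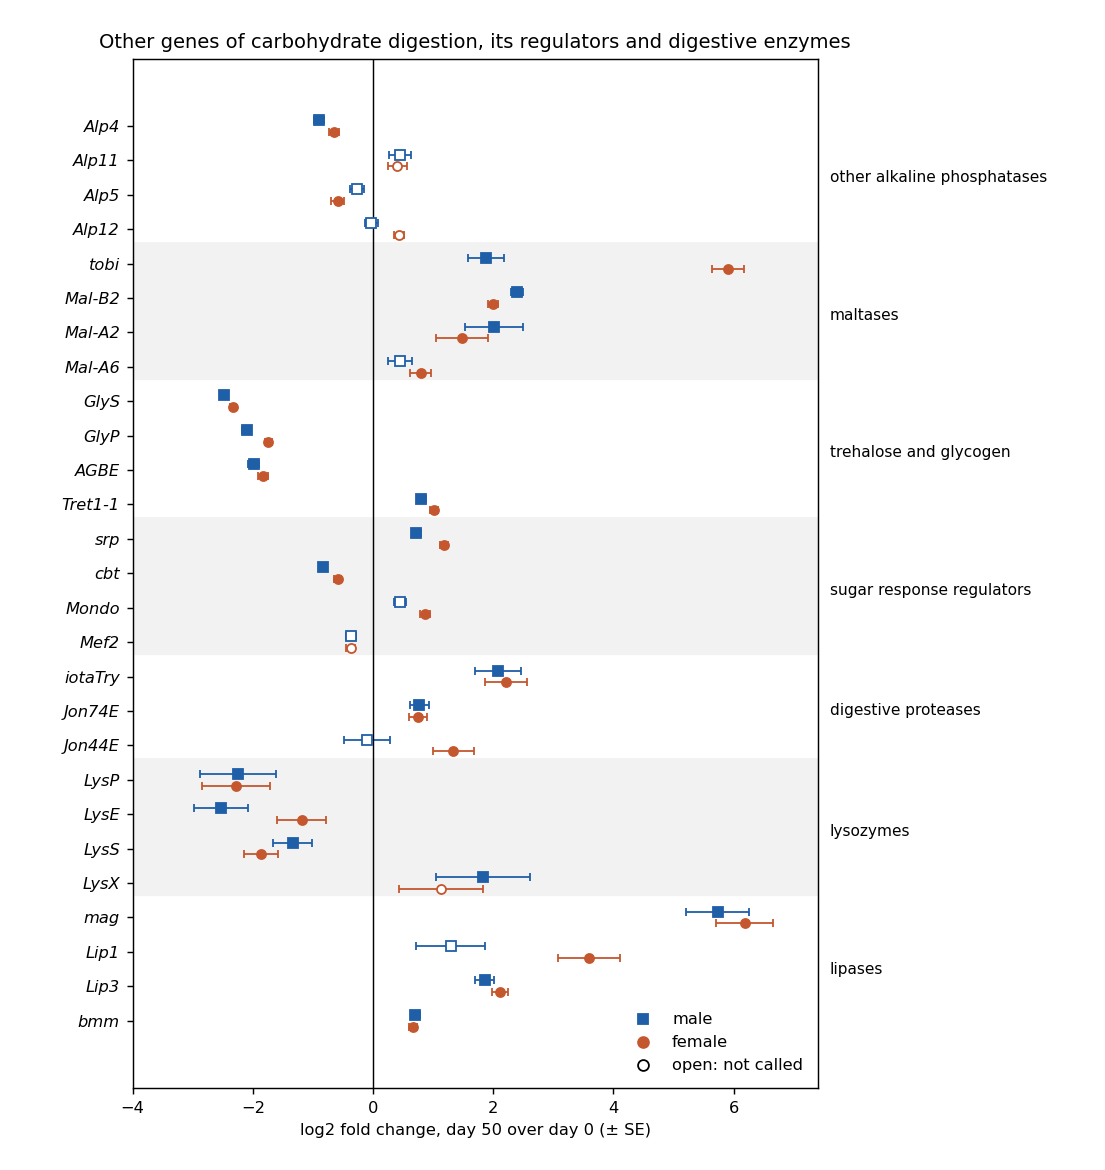
Log2 fold change of day 50 over day 0 with its SE (horizontal axis) for up to 4 genes of each of the 7 lists (vertical axis), squares for males and circles for females, open where the gene was not called. mag and, in females, tobi changed most, the maltase and lipase genes shown lie mostly to the right of 0, and the glycogen genes and most lysozyme genes lie to the left.

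Other digestive enzymes did not move as a block. Of 27 listed trypsin and Jonah protease genes 25 were in the table and 22 of these averaged under 10 normalized reads. The 3 others were iotaTry (2.08 ± 0.39 in males and 2.22 ± 0.35 in females), Jon74E (0.77 ± 0.16 in males and 0.75 ± 0.15 in females) and Jon44E (-0.10 ± 0.39 in males and 1.34 ± 0.35 in females), of which 2 rose in males and 3 in females. Lysozymes fell, 4 of 6 tested in each sex, with 1 rise in males: LysP fell by 2.24 in males and 2.28 in females, and LysX stood at 1.83 ± 0.78 in males (limma adjusted p = 0.041), a call lost with the replicate number as a block (adjusted p = 0.058), in edgeR (adjusted p = 0.059), with a pseudocount of 8 and without any 1 of the 5 male libraries (limma adjusted p 0.055 to 0.15).

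Lipases rose in 3 of 5 tested genes in males and 4 of 5 in females, and none fell. mag, which encodes a lipase secreted into the gut, averaged 270.2 normalized reads in males and 101 in females at day 50, against 3.88 in males and 0.27 in females at day 0 (limma adjusted p = 1.9e-10 in males and 3.2e-12 in females). Lip3 rose by 1.86 ± 0.16 in males and 2.11 ± 0.14 in females, and bmm, the adipose triglyceride lipase gene, by 0.71 ± 0.08 in males and 0.67 ± 0.07 in females.

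The markers of other tissues were read beside these genes. Of 12 midgut markers 10 were in the table and 3 were tested, and their summed level was 589 to 685 normalized reads in males and 394 to 534 in females at day 50, against 554 to 594 in males and 611 to 631 in females at day 0. Defining midgut proteases were at or near 0 throughout: alphaTry was listed at 0 in 20 of the 33 libraries with a highest value of 10.1, betaTry at 0 in 26, Jon25Bi in 25, Jon99Cii in 23 and Jon66Ci in 21. Of the 3 midgut markers tested, mag rose in both sexes, and Npc1b rose in females, with a mean of 55.5 at day 50 against 12.9 at day 0. The third, lab, fell in both sexes (-0.77 ± 0.09 in males and -1.08 ± 0.08 in females). Of these 3, lab made up most of the female sum at day 0, where mag and Npc1b were low. Of 4 Malpighian tubule markers 3 were tested, and at day 50 against day 0 NaPi-T rose and Oatp58Db fell in females, while in males Oatp58Db stood at -0.96 ± 0.53, NaPi-T at 0.29 ± 0.25 and Irk3 at 0.48 ± 0.07. The tubule marker Uro never passed 6.68, while Irk3 averaged 1151 over all libraries.

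Fat body markers, which any head contains, moved with both sex and age. All 8 were tested. At day 50 against day 0, 3 rose and 2 fell in males and 8 rose in females. Among all tested genes 19.9% rose and 22.5% fell in males, and 21.0% rose in females. All 8 markers were lower in males than in females at day 50, as were 880 of the 12685 tested genes. Their summed level ran from 616291 to 738221 normalized reads in males and from 4330097 to 5657309 in females at day 50, and from 1095554 to 1141178 in males and 3306257 to 3876051 in females at day 10. At day 0 it ran from 170500 to 208633 in males and from 669200 to 946874 in females. In females the sum is mostly that of the yolk protein genes Yp1, Yp2 and Yp3, and single markers ran both ways. On day 10, when 11.6% of all tested genes were called between the sexes, 2 of the 8 were higher in males and 4 were lower. The 2 higher ones were Lsp2 by 5.13 ± 0.50 and to by 2.52 ± 0.31 (limma adjusted p at most 8.4e-07). On day 20 to was higher by 1.77 ± 0.31 (limma adjusted p = 6.5e-05). The part of the fat body in the amylase and phosphatase values was not tested.

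Markers of further tissues also moved with sex or age. Among all tested genes 11.6% were called between the sexes on day 10. On day 10, 2 of 3 tested male reproductive tract markers were higher in males, with a summed level of 760.2 to 783 normalized reads in males and 267 to 328 in females, 4 of 5 hemocyte markers were lower in males (73718 to 79462 in males and 134229 to 156240 in females), and 3 of 5 muscle markers were lower and 1 higher (87350 to 92207 in males and 138537 to 159984 in females). At day 50 against day 0, 4 of 5 muscle markers and 3 of 5 neuron markers fell in each sex. Among all tested genes 22.5% fell in males and 24.9% in females. The list medians were -2.50 in males and -2.71 in females for muscle, and -0.57 in males and -0.73 in females for neurons. The other muscle marker, TpnC4, rose by 3.77 ± 0.58 in males and 2.15 ± 0.52 in females. Of 7 photoreceptor markers tested, ninaE, Rh4 and Rh6 rose in both sexes, beside 19.9% of all tested genes in males and 21.0% in females. The rise of ninaE was 1.06 ± 0.04 in males and 1.15 ± 0.04 in females. norpA fell in males (-0.56 ± 0.04) and stood at -0.45 ± 0.03 in females, and the others were not called. The part of these tissues in the values of the 5 genes was not tested.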

How the data were processed

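RNA from pooled heads was depleted of ribosomal RNA with RNase H, made into directional libraries and read as 150-base pairs. The authors aligned reads to dm6 with STAR, counted them per gene with featureCounts and normalized them with DESeq2. Versions and the strand setting are not given in the sources used here. They left out 2 male libraries as outliers. Per the file headers the deposited signal is normalized reads, that is, counts divided by a size factor. Whole reads were recovered for 100% of values in 32 of 33 libraries (tolerance 0.01), but not in male day 20 replicate 1.

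The 12685 genes averaging 10 or more normalized reads were fitted with limma 3.58.1 (R 4.3.3; trend, robust) on log2(value + 1), with 12 group means in 1 model and Benjamini-Hochberg adjustment over all of them. Fold changes on this scale understate changes of low genes. A call required adjusted p below 0.05 together with an absolute difference above 0.5 (log2). edgeR 4.0.16 and DESeq2 1.42.0 were run on the recovered reads of 32 libraries. Other alternatives were the pseudocount, the filter, total-read scaling, the replicate number as a block, the samples fitted and leaving out each library. Gene positions came from the Ensembl annotation and sequence from the RefSeq genome of the same assembly. The script was tested on simulated data. Named genes were the members, the 3 most correlated genes of each, at most 4 genes of each list with the largest mean change of both sexes, tissue-defining genes listed at 0, and the nearest neighbours. Regulators of the sugar response called between the sexes at day 10 were named as well. Members and lists were chosen with earlier results of these data known.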

Additional observations from a re-analysis of the deposited data

Results flagged for a closer look

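The sexes differed in their age changes for 4 of the 5 genes by the test of the difference itself, given as male minus female change in log2(normalized reads + 1). For the change by day 50 the difference was 1.50 for Amy-p (limma adjusted p = 0.031) and 1.41 for Amy-d (limma adjusted p = 5.3e-07). For the change by day 10 it was 4.54 for Amy-p, 2.38 for Amy-d, -4.16 for Alp9 and -3.98 for Alp10 (limma adjusted p at most 2.9e-07). For the change between day 10 and day 50 it was -3.04 for Amy-p, -0.97 for Amy-d, 4.59 for Alp9 and 3.97 for Alp10 (limma adjusted p at most 0.00014). The day 10 and later contrasts were chosen after seeing the data, and all of them share libraries. The genes were picked for their age changes in both sexes, so all these p-values are those of selected genes.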

How the results depend on the processing

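Of 19 sex differences called among 30 tests of the 5 genes, 18 kept their direction and call in every alternative run for them (13 or 14 each). The exception was Amyrel at day 0: the number of the 5 genes called there, 1, became 0 without the filter, with only the groups compared in the fit, in edgeR and in DESeq2, and 0 to 1 over left-out libraries. For the change by day 50, 2 of the 5 genes were called, against 1 when only the groups compared were fitted and 1 to 2 over left-out libraries. Uncalled differences near 0 changed sign. At day 0 the sex difference was -0.16 in edgeR and -0.064 in DESeq2 for Amy-p, -0.026 in edgeR for Amy-d, and -0.029 in edgeR and -0.010 in DESeq2 for Alp10. The sex difference of the day 50 change of Alp10 was 0.13 with total-read scaling, 0.073 in edgeR and 0.053 in DESeq2. Alp12 in males at day 50 against day 0 was 0.23 with total-read scaling and 0.045 in edgeR, and Jon44E 0.145 with total-read scaling. With 1 library left out, day 0 sex differences ran from -0.28 to 0.57 for Amy-p, -0.0495 to 0.076 for Amy-d, -0.71 to 0.22 for Alp9 and -0.37 to 0.26 for Alp10. Day 50 ones ran from -0.080 to 0.27 for Alp9, -0.16 to 0.22 for Alp10 and -0.58 to 0.070 for Amyrel, which ran from -0.049 to 0.47 on day 10 and from -0.055 to 0.27 on day 20. Sex differences of the day 50 change ran from -0.13 to 0.80 for Alp9 and -0.23 to 0.40 for Alp10, and Jon44E in males from -0.44 to 0.24.

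Scaling to total linear reads moved the median of all genes by 0.26 (log2) in males and 0.12 in females at day 50 against day 0, and by 0.04 to 0.25 between the sexes. With it, genes higher in males than in females numbered 1392 for day 20 (620 otherwise), 2290 for day 30 (517), 1005 for day 40 (494) and 1535 for day 50 (556), and genes lower numbered 922 (1480), 546 (1038) and 569 (880) at days 20, 30 and 50. Genes higher numbered 618 (324) for the sex difference of the day 50 change and 454 (253) for that of the change after day 10. In males at day 50 against day 0 it gave 3893 genes higher (2519) and 1869 lower (2859), with 20 list genes higher (12), and against day 10 it gave 6 list genes lower (10). Without the filter 1300 genes were higher in males at day 10 (796). At day 20, 219 genes were higher and 480 lower with only the groups compared, and 948 lower in edgeR. Without male day 20 replicate 1 the day 20 counts were 403 higher and 953 lower, and without replicate 2 they were 1393 higher and 2305 lower. List genes lower in females at day 50 against day 10 numbered 3 to 6 over left-out libraries. The causes were not tested. Replicate numbers did not pair the libraries (mean correlation of deviations -0.0018 over 166 same-number pairs and 0.00094 over 332 others). With the replicate number as a block, 544 genes were higher and 878 lower in males at day 50 (556 and 880 without), no sex call of the 5 genes changed, and the Alp10 day 50 change difference was 0.068. The block also ended the male LysX call and added one for Lip1 in males.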
